A study of Paeonia lactiflora with 8 samples.

Results

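The 4 genes described here carry the symbols CYP86A2 (comp22420_c0), CYP77A3 (comp22341_c0), CYP94A1 (comp21882_c0) and ABCG12 (comp22608_c0) in a de novo transcriptome of herbaceous peony (Paeonia lactiflora). They are 4 of 30177 assembled genes, taken by their IDs, and all 4 passed the filter on low counts that left 27939 genes for testing. They were chosen with their levels in these libraries known, so their values are a description and carry no p-value. The symbols were transferred from other plants, and what is known of each gene comes from those species.

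The aerial surface of a land plant is covered by the cuticle, a polyester called cutin that is filled and coated with waxes. Cutin is made in epidermal cells from fatty acids that cytochrome P450 enzymes hydroxylate at the end or in the middle of the chain. Acyltransferases then join the hydroxy acids to glycerol, and transporters of the ABCG family move cutin monomers and waxes out of the cell. Suberin, a related polyester, is laid down in roots by close relatives of the same enzymes. In petals and other floral organs, the cuticle limits water loss, keeps neighbouring organs from fusing and shapes the surface ridges of the epidermis.

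Messenger RNA was sequenced from 4 organs with 2 biological replicates each, 8 libraries in all. Root, leaf and flower were taken when the plants were in blossom, and fruit at the young fruit stage, so that organ and period cannot be told apart for fruit. No genotype, cultivar or treatment is given for any group. The total estimated count per library ran from 30399492 to 49421127.

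IDs with the symbol TAR1-A, known from yeast for a transcript antisense to ribosomal RNA, took from 1.77% of the counts in leaf replicate 2 to 41.41% in flower replicate 2 (Wilson 95% interval 41.39% to 41.43%, counting error only). Levels are therefore given as TMM-scaled CPM (counts relative to a library size corrected for differences in composition), and as the deposited TPM, which is per length, where genes are compared with each other. The organ labels were checked against markers. Summed CPM of 21 light-harvesting and RBCS genes was 107653 and 78544 in leaf and at most 7348 elsewhere. The 3 petal and stamen MADS genes with the symbols GLO and DEFA summed to 1482 and 1090 CPM in flower and to at most 8.98 CPM elsewhere. The root MADS gene AGL12 was at 10.9 and 16 CPM in root and at most 3.96 CPM elsewhere. The fruit libraries stood apart from each other. Oleosin genes of seeds (2 IDs) summed to 5.40 CPM in fruit replicate 1 and to 5310 CPM in fruit replicate 2.

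CYP86A2 was a flower and leaf gene. In Arabidopsis, enzymes of the CYP86A family add a hydroxyl group to the end of the fatty acid chain, the first step towards cutin monomers. Its level was 997 and 1277 CPM in the flower replicates and 78.6 and 133 CPM in the leaf replicates. In fruit it was 0.366 and 0.781 CPM, and in root 0.324 and 0.240 CPM. Flower was highest, leaf followed, and fruit and root were lowest, with no overlap between flower, leaf and the lowest pair. The order of fruit and root was not settled with 2 libraries per organ. They rested on 25 and 32 counts and on 16 and 14 counts per library. In summed counts fruit exceeded root 1.87-fold (95% counting interval 1.18 to 3.02, counting error only). The log2 fold change was -1.0 ± 0.54 (SE, root over fruit, edgeR's quasi-likelihood fit, n = 2 per organ), less than 2 SE from 0. In the same fit the log2 fold change was -11.97 ± 0.78 for root against flower and -8.54 ± 0.69 for root against leaf. Flower exceeded fruit by 10.96 ± 0.75 and leaf exceeded fruit by 7.54 ± 0.66 on the log2 scale. Leaf lay below flower by a smaller margin, with a log2 fold change of -3.43 ± 0.54. These are bulk samples, in which fewer epidermal cells and less RNA per cell cannot be told apart.

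**Figure D1:**
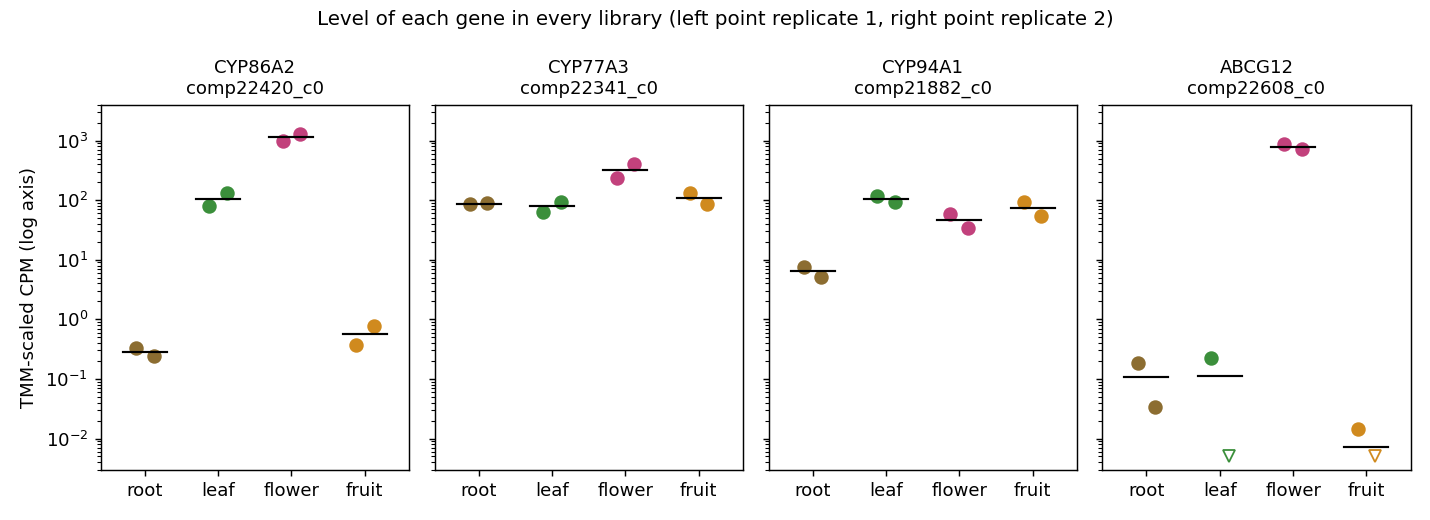
TMM-scaled CPM (log axis) of CYP86A2, CYP77A3, CYP94A1 and ABCG12 in each organ; filled points are the 2 replicates of an organ, bars their mean, and open triangles at the foot mark libraries with a count of 0. CYP86A2 ranges from 997 CPM or more in flower to 0.781 CPM or less in root and fruit, ABCG12 is at 709 CPM or more in flower and below 0.3 CPM elsewhere, CYP77A3 stays between 64.2 and 410 CPM in every library, and CYP94A1 is lowest in root.

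CYP77A3 was the most evenly spread of the 4 genes. Enzymes of the CYP77A family oxidise fatty acids within the chain, and an Arabidopsis member makes the mid-chain hydroxyl groups of flower cutin. Its level was 237 and 410 CPM in flower and 131 and 85.4 CPM in fruit. In root it was 87.2 and 87.9 CPM, and in leaf 64.2 and 92.5 CPM. Only flower stood apart on this scale, its lower library lying 1.81 times above the highest library of the other organs, while fruit, root and leaf overlapped. The log2 fold change was -1.89 ± 0.43 for root against flower, -2.05 ± 0.43 for leaf against flower and 1.58 ± 0.43 for flower against fruit. Root differed from leaf by 0.16 ± 0.42 and from fruit by -0.31 ± 0.42, and leaf from fruit by -0.47 ± 0.42, all within about 1 SE of 0. On the deposited TPM, which have no correction for composition, the higher level in flower was less clear. The flower libraries had 56.6 and 132 TPM, the root libraries 39.3 and 60.5 TPM, the leaf libraries 24.9 and 45.7 TPM and the fruit libraries 83.4 and 36.9 TPM. Flower replicate 1 was thus below fruit replicate 1 and root replicate 2 in TPM. On log2(TPM + 1) the difference was -0.81 for root against flower and 0.63 for flower against fruit.

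CYP77A3 also differed in which transcripts were counted. The gene has 3 assembled transcripts and a deposited length of 4465 bases. Its deposited effective length, the measure behind TPM, is 1859 bases. The effective length implied by its count and TPM ranged from 1678 bases in fruit replicate 1 to 2163 bases in flower replicate 1. The share of its reads given to shorter transcripts thus differed between libraries. CYP86A2 and CYP94A1 have 1 transcript each, so their implied lengths were constant.

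CYP94A1 was low in root and present in all aerial organs. The enzyme with this symbol was described in common vetch as a hydroxylase of the end carbon of fatty acids. Its level was 7.64 and 5.10 CPM in root, 116 and 93.5 CPM in leaf, 92.2 and 54.0 CPM in fruit, and 59.0 and 34.4 CPM in flower. Root lay apart from all other organs. Leaf lay just above fruit without overlap, and fruit and flower overlapped. The log2 fold change was -4.04 ± 0.48 for root against leaf, -3.52 ± 0.47 for root against fruit and -2.87 ± 0.46 for root against flower. Leaf exceeded flower by 1.16 ± 0.43 on the log2 scale. Leaf and fruit differed by 0.52 ± 0.43, and flower and fruit by -0.65 ± 0.43. In TPM the order of leaf and fruit was not kept, with 58.2 and 55.8 TPM in leaf and 67.3 and 27.9 TPM in fruit. CYP94A1 was the only one of the 4 genes whose flower libraries both lay below both leaf libraries.

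ABCG12 was counted almost entirely in flower. In Arabidopsis this transporter, also known as CER5, carries wax across the plasma membrane of epidermal cells. The flower libraries held 26181 and 12520 counts, or 864 and 709 CPM. The root libraries held 9 and 2 counts, the leaf libraries 10 and 0, and the fruit libraries 1 and 0. The lower flower library was 3204 times as high in CPM as the highest library of any other organ. Of 27939 genes tested, 172 (0.616%) had a lower flower library at least 1000 times as high as every library of the other organs, and 235 (0.841%) at least 100 times as high. Of those 172 genes, 156 had no count at all outside flower. The corresponding ratio was 7.49 for CYP86A2, and for CYP94A1 it was 0.297. The fitted log2 fold change was -12.82 ± 1.58 for root against flower and -12.77 ± 1.58 for leaf against flower. With scaled library sizes, flower exceeded root 7905-fold (95% counting interval 4417 to 15837) and leaf 7358-fold (4001 to 15346). Against the single count in fruit the ratio was 88193, with a counting interval from 15828 to 3483511. These intervals cover counting error only. The few counts outside flower leave the order of root, leaf and fruit undetermined at this depth. Without leaf replicate 1, leaf is at 0 and the fitted value is no bound. ABCG12 has 2 assembled transcripts, and its implied effective length was 1576 bases in flower replicate 1 and 2097 bases in flower replicate 2.

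Set side by side per length, CYP86A2 was the highest of the 4 genes in flower, at 338 ± 102 TPM (mean ± SD, n = 2). ABCG12 followed at 246 ± 51.9 TPM, CYP77A3 at 94 ± 53 TPM and CYP94A1 at 17.7 ± 4.41 TPM. The replicates of CYP86A2 (266 and 410 TPM) and ABCG12 (283 and 209 TPM) overlapped, so these neighbours do not differ beyond their spread. In root the order was another. CYP77A3 led there at 49.9 ± 15 TPM, CYP94A1 was at 4.39 ± 0.396 TPM, and CYP86A2 and ABCG12 were at 0.15 and 0.05 TPM. In leaf, CYP94A1 (57 ± 1.68 TPM), CYP86A2 (45 ± 21.4 TPM) and CYP77A3 (35.3 ± 14.7 TPM) lay close together. In fruit, CYP77A3 (60.1 ± 32.9 TPM) and CYP94A1 (47.6 ± 27.9 TPM) were within their spread, and CYP86A2 was at 0.255 TPM.

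Among 167 IDs with a CYP symbol, CYP86A2 had the 3rd highest mean TPM in flower, CYP77A3 the 5th and CYP94A1 the 25th. In root the same genes ranked 143rd, 33rd and 110th of 167. ABCG12 ranked 1st of 38 IDs with an ABCG symbol in flower and 33rd in leaf. Among all 30177 IDs, CYP86A2 ranked 405th and ABCG12 563rd in flower.

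Other IDs with the same or related symbols had other organ patterns. A second CYP86A2 ID (comp15544_c0) was a leaf gene, at 24.0 and 33.6 CPM in leaf and at most 4.39 CPM in any other library. It fell in root against leaf (log2 fold change -3.53 ± 0.62, adjusted p = 0.0141). It was also higher in leaf than in flower (2.80 ± 0.60, adjusted p = 0.0221) and than in fruit (4.05 ± 0.64, adjusted p = 0.0142). In flower the 2 CYP86A2 IDs thus stood at 997 and 1277 CPM against 4.39 and 3.91 CPM, and in leaf at 78.6 and 133 CPM against 24.0 and 33.6 CPM. A second CYP94A1 ID (comp11707_c0) was highest in flower, at 16.2 and 5.09 CPM, and passed against fruit (8.22 ± 1.73, adjusted p = 0.0266). The third CYP94A1 ID (comp22921_c0) ranged from 4.40 to 31.5 CPM across the 8 libraries and passed in no comparison.

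The second ABCG12 ID (comp14241_c1) was counted in leaf, with 378 and 981 counts, 8.36 and 21.3 CPM. It had no counts in root, 4 and 0 in flower and 0 and 8 in fruit. Taking 3 counts over the root group as the floor, leaf was at least 535-fold higher than root (adjusted p = 0.0315). Leaf exceeded flower by 7.57 ± 1.95 on the log2 scale (adjusted p = 0.0461), the opposite order of organs from comp22608_c0. An assembler can split a gene or merge near-identical copies, and reads shared by copies may have been divided between IDs, so single members of these families are uncertain.

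**Figure D2:**
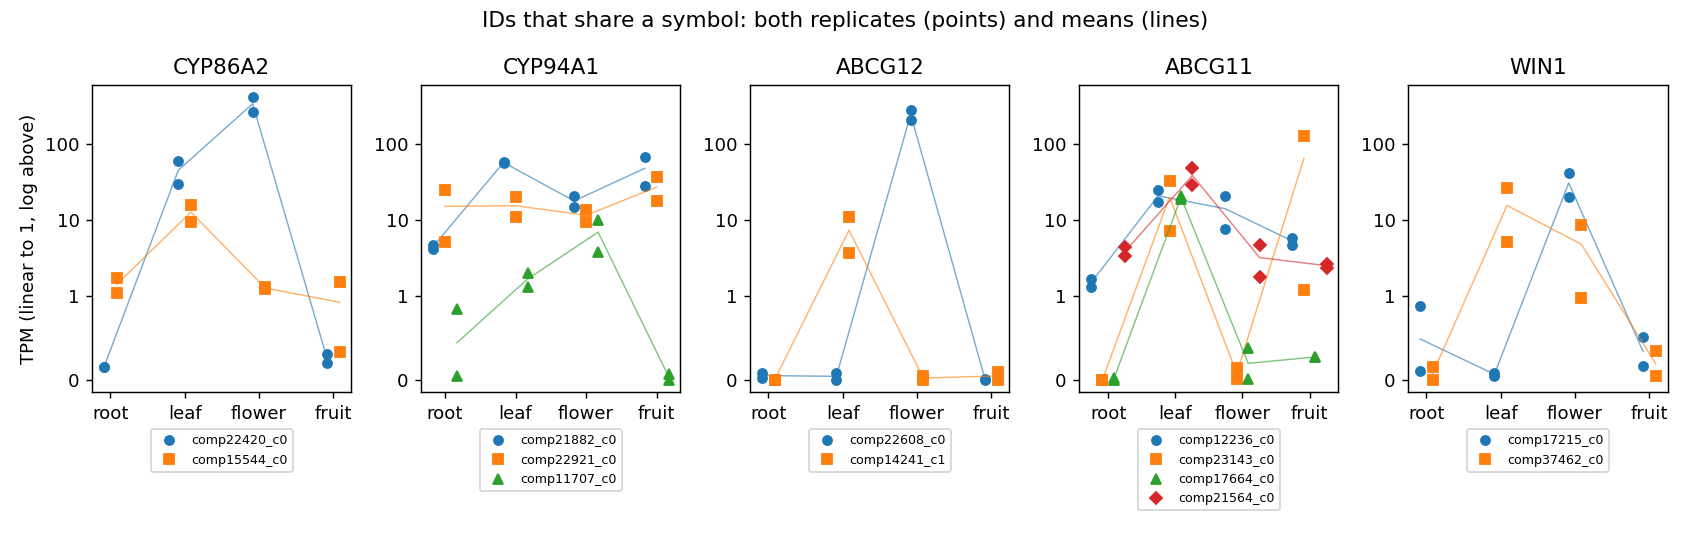
Deposited TPM (linear up to 1, logarithmic above) of IDs that share the symbols CYP86A2, CYP94A1, ABCG12, ABCG11 and WIN1; points are the 2 replicates of each organ and thin lines join organ means to guide the eye. The flower-high CYP86A2, ABCG12 and WIN1 IDs each have a partner of the same symbol that is highest in leaf.

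The other genes of surface lipid synthesis were taken from symbol lists of cutin synthesis, export and polymerisation, wax, suberin and regulators, which hold 71 IDs besides the 4 genes, 66 of them tested. Passing required at least a doubling in either direction (1 on the log2 scale) and a two-sided p from edgeR below 0.05 after Benjamini-Hochberg adjustment across the 27939 tested genes. The lists were chosen with earlier results of these data known. Comparisons that share an organ share its libraries and are not independent.

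Most listed genes that passed were higher in flower and leaf than in root and fruit. In root against flower, 32 of 66 were lower in root and 4 higher, where 11.2% and 9.39% of all tested genes passed in those directions. Their median log2 fold change was -3.73, beside 0.17 over all tested genes. In root against leaf, 24 of 66 were lower in root and 4 higher (7.92% and 4.45% of all tested genes), with a median of -2.55 beside 0.09. In flower against fruit, 30 of 66 were higher in flower, where 8.06% of all tested genes were. The count lower in flower was 0 with edgeR (6.65% of all tested genes), 3 at an unadjusted p under 0.05 and 3 with DESeq2. The median there was 2.53 beside -0.16. In leaf against fruit, 19 of 66 were higher in leaf and 1 lower (6.05% and 3.59%, or 9.64% in either direction), with a median of 2.04 beside 0.01. Between leaf and flower the listed genes went both ways, 9 of 66 higher in leaf and 12 lower (10% and 9.32%), with a median of -0.39 beside 0.13. Few passed between root and fruit, with 3 of 66 higher in root and 1 lower (0.816% and 1.24%, or 2.06% in either direction), and a median of -0.30 beside 0.01. At an unadjusted edgeR p under 0.05 there were 26 of 66, with 10 higher in root and 16 lower. The few that passed between root and fruit therefore do not show that their levels were alike. With genes at 0 in an organ set to their bound, the medians were -3.37, -2.49, 3.07, 2.15, -0.70 and -0.47 in the same order. Genes at 3 counts or fewer in both organs, or with a bound under 1-fold, were left out of these medians. In some comparisons they therefore cover fewer than the 66 genes.

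These counts fell when a library of the compared organs was left out, and so did the calls over all genes, except those of root against fruit without root replicate 2 (2.19% of all genes, beside 2.06%). In root against leaf, 28 listed genes passed with all libraries (12.4% of all genes). Without root replicate 1, 16 passed (6.71%), and 13 passed without leaf replicate 1 (4.5%) and without leaf replicate 2 (4.11%). In root against flower, 36 passed (20.6%), 20 without root replicate 1 (7.84%) and 22 without flower replicate 1 (4.91%) or flower replicate 2 (7.89%). In flower against fruit, 30 passed (14.7%), 13 without flower replicate 1 (2.06%), 10 without flower replicate 2 (2.85%) and 11 without fruit replicate 1 (3.79%) or fruit replicate 2 (3.4%). In leaf against flower, 21 passed (19.3%), 9 without leaf replicate 1 (5.01%), 5 without leaf replicate 2 (3.43%), 8 without flower replicate 1 (5.94%) and 9 without flower replicate 2 (7.68%). In leaf against fruit, 20 passed (9.64%), 6 without leaf replicate 1 (0.609%), 12 without fruit replicate 1 (2.71%) and 1 without fruit replicate 2 (0.473%). Without leaf replicate 2 edgeR called 0 listed genes there, and 0% of all genes, while 28 listed genes had an unadjusted p under 0.05; DESeq2 was run with all libraries, and called 32. In root against fruit, 4 passed, and edgeR called 0 without root replicate 1 and without each leaf, flower and fruit replicate, with 0.111% to 0.529% of all genes called and 25 to 29 listed genes at an unadjusted p under 0.05; DESeq2 with all libraries called 20.

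**Figure D3:**
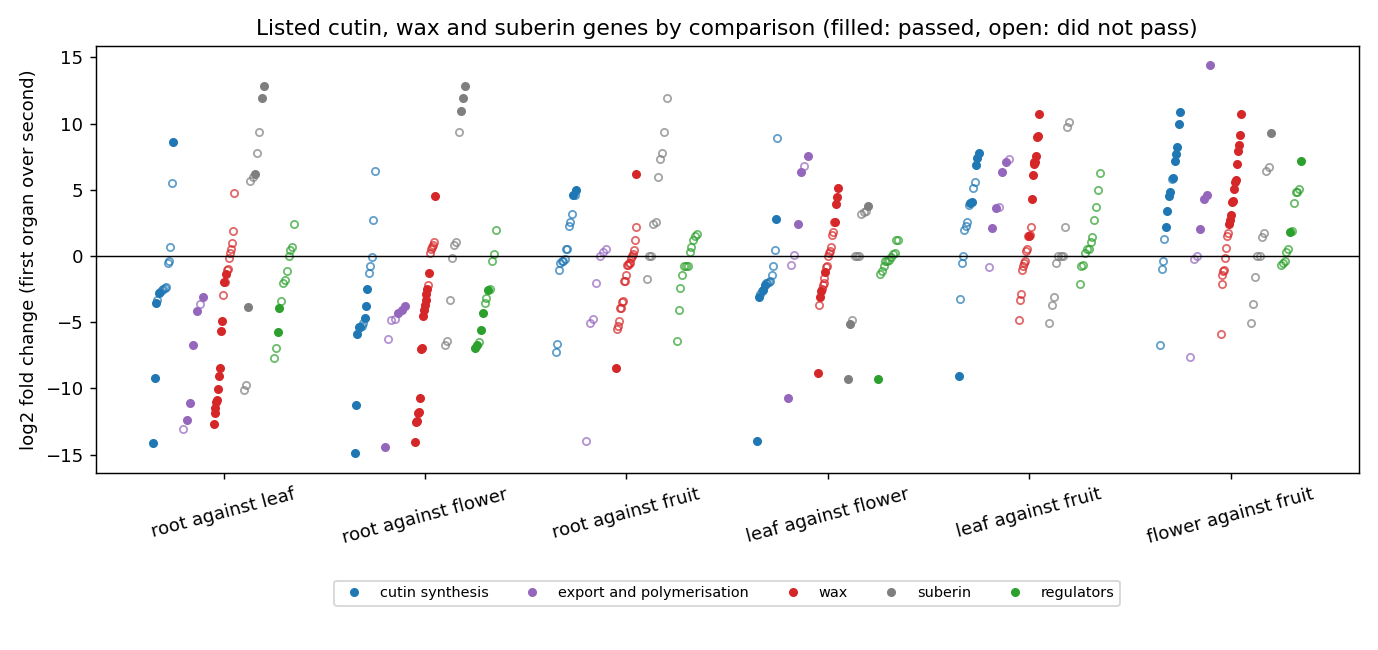
Log2 fold change (first organ over second) of each listed gene in the 6 comparisons, coloured by group, with the 4 chosen genes left out; filled points passed and open points did not. Genes at 0 in an organ are drawn at their fitted value, which is no bound. Filled points lie mostly below 0 for root against leaf and root against flower and mostly above 0 for leaf and flower against fruit.

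Of 15 cutin synthesis genes tested, 8 were lower in root than in flower (11.2% of all tested genes), and 10 were higher in flower than in fruit (8.06%). Not all peaked in flower, as the leaf-high CYP86A2 comp15544_c0 and the widely expressed CYP94A1 comp22921_c0 show. DCR (comp20983_c0), an acyltransferase needed for cutin in Arabidopsis, was at 736 and 606 CPM in flower and between 97.5 and 199 CPM in the other libraries. It fell in root against flower (-2.53 ± 0.49, adjusted p = 0.0167) and in leaf against flower (-2.16 ± 0.48, adjusted p = 0.0243). GPAT6 and GPAT8 are glycerol-3-phosphate acyltransferases that form the glycerol esters of cutin monomers. GPAT6 (comp5908_c0) had 516 and 261 CPM in flower, 50.3 and 38.6 in leaf, 2.82 and 10.4 in root and 0.293 and 0.0976 in fruit. A second GPAT6 ID (comp16522_c0) had 229 and 130 CPM in flower and 0.263 and 0.0732 in fruit. Both were higher in root than in fruit (5.01 ± 0.87, adjusted p = 0.0446, and 4.61 ± 0.73, adjusted p = 0.0361). GPAT8 (comp15357_c0) was at 611 and 297 CPM in flower and fell in root against flower (-3.79 ± 0.87, adjusted p = 0.0270).

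The HTH symbol, from the Arabidopsis HOTHEAD gene that keeps floral organs from fusing, covered 4 IDs that all had their highest mean in flower and differed elsewhere. HTH comp22063_c0 was at 687 and 98 CPM in flower, 11 and 7.84 in root, 9.80 and 17.3 in fruit, and had 2 and 0 counts in leaf. HTH comp22965_c0 was at 35.0 and 136 CPM in flower and 16.3 and 82.6 in leaf, and had no count in root. Leaf was at least 1786-fold above root for this ID (adjusted p = 0.00781). In the opposite direction, for comp22063_c0 root was 423-fold above leaf (95% counting interval 117 to 3495, adjusted p = 0.0106). The other 2 HTH IDs were lower, at 8.78 and 11.3 CPM (comp15708_c0) and 4.19 and 2.77 CPM (comp8693_c0) in flower.

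Among export and polymerisation genes, 5 of 7 tested were lower in root than in leaf (7.92% of all tested genes) and 4 were lower in root than in flower (11.2%). LTL1 (comp4784_c0), a GDSL lipase, was the one among the 7 with counts almost only in flower, at 39.1 and 81.7 CPM there, with 0 and 3 counts in leaf and none in root or fruit. Its flower level was at least 1970-fold above root (adjusted p = 0.00754). ABCG32 (comp20953_c0), a full-size transporter of cutin precursors in Arabidopsis, was at 45.1 and 60.2 CPM in leaf and 47.7 and 119 CPM in flower, and at most 7.73 CPM in root and fruit. It fell in root against flower (-3.76 ± 0.69, adjusted p = 0.0146) and rose in leaf against fruit (3.6 ± 0.68, adjusted p = 0.0237). ABCG11 is the transporter that pairs with ABCG12 in Arabidopsis wax export and also acts in cutin export. None of its 4 IDs had counts mainly in flower. ABCG11 comp12236_c0 was at 55.3 and 66.4 CPM in leaf and 34.3 and 78.9 CPM in flower. The other three were highest in leaf or in fruit replicate 2. ABCG11 comp17664_c0 had 48.9 and 45.5 CPM in leaf and 0.033 and 1.19 CPM in flower, and rose in leaf against flower (6.35 ± 1.36, adjusted p = 0.0213). ABCG11 comp21564_c0 rose in the same comparison (2.44 ± 0.65, adjusted p = 0.0410). ABCG11 comp23143_c0 was at 10.5 and 38.5 CPM in leaf, and at 0.776 CPM in fruit replicate 1 against 87.8 CPM in fruit replicate 2, and passed in no comparison.

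Of 22 wax genes tested, 12 were lower in root than in leaf (7.92% of all tested genes) and 15 lower in root than in flower (11.2%). Of the same 22, 10 were higher in leaf than in fruit (6.05%) and 13 higher in flower than in fruit (8.06%). CER1 comp14365_c0 and comp14365_c1 come from 1 assembled component and may be pieces of 1 gene, but are counted as 2 in each of these numbers. Between leaf and flower, 4 were higher in leaf (10%) and 4 in flower (9.32%). CUT1 (comp12348_c0), the condensing enzyme of wax precursors also known as CER6, was at 676 and 890 CPM in flower and 493 and 363 CPM in leaf. It was at 0.0811 and 0.325 CPM in root and 4.62 and 1.66 CPM in fruit, and fell in root against flower (-11.87 ± 1.07, adjusted p = 0.00318). CER1 and CER3 act together in alkane formation. CER1 comp22878_c0 was at 849 and 1805 CPM in flower and at most 4.87 CPM in any other library, and fell in leaf against flower (-8.83 ± 1.15, adjusted p = 0.00520). CER3 (comp16046_c0) was at 257 and 198 CPM in flower and 27.3 and 53.5 CPM in leaf, and was lower in root than in fruit (-8.46 ± 1.01, adjusted p = 0.0198). ECR (comp16926_c0), the enoyl reductase of chain elongation, was at 238 and 180 CPM in flower, 96.4 and 88.1 in leaf and 30.1 to 42.5 in root and fruit.

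Elongases and reductases differed among themselves. KCS12 (comp22645_c0) was at 89.3 and 81.2 CPM in leaf and 4.95 and 2.66 CPM in flower (4.48 ± 0.63, adjusted p = 0.00621). KCS11 (comp21730_c0) was at 34.3 and 155 CPM in leaf and 5.54 and 7.13 CPM in flower (3.90 ± 0.77, adjusted p = 0.0169). Both symbols stand for ketoacyl-CoA synthases, which lengthen fatty acids. Another pair of KCS11 IDs went in the opposite direction in leaf against flower. KCS11 comp15891_c0 was at 6.28 and 7.94 CPM in leaf and 53.2 and 69.7 CPM in flower (-3.11 ± 0.34, adjusted p = 0.00354). KCS11 comp22033_c0 was at 11.6 and 7.87 CPM in leaf and 57.9 and 61.8 CPM in flower (-2.62 ± 0.40, adjusted p = 0.00750). FAR2 (comp17930_c0), of the reductases that make fatty alcohols, was highest in root, at 21.2 and 15 CPM, and rose in root against flower (4.50 ± 0.79, adjusted p = 0.0128).

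**Figure D4:**
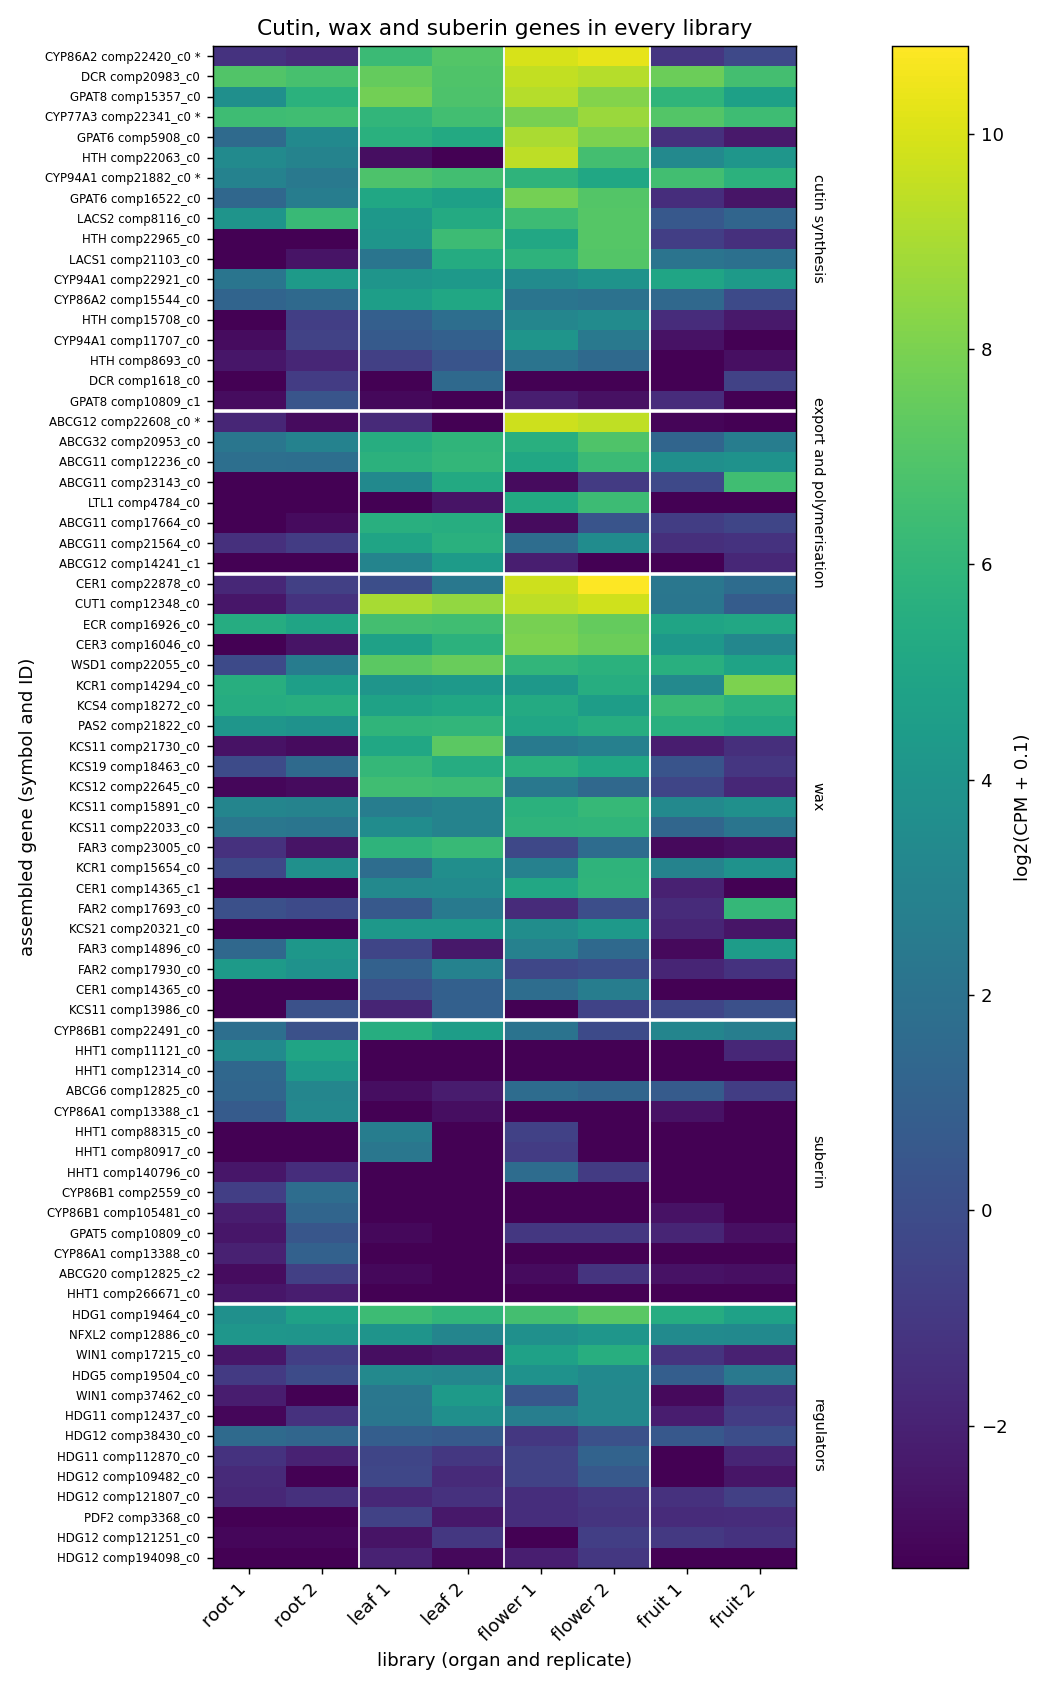
Log2(CPM + 0.1) of the 4 chosen genes (marked *) and the 71 listed genes in the 8 libraries, grouped by role and ordered within a group by mean level. The upper rows of the cutin synthesis and wax groups are brightest in the flower columns, several wax and export genes are as bright in leaf, and the suberin rows are dark outside root apart from CYP86B1 comp22491_c0 in leaf and a few others.

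Of 14 suberin IDs, 10 were tested. Of these, 3 were higher in root than in leaf (4.45% of all tested genes) and 3 higher in root than in flower (9.39%). The list's median in root against leaf was 6.05, opposite in sign to the other groups. Summed TPM of the 14 IDs was 22.7 in root replicate 1 and 153 in root replicate 2, so most of the root signal came from 1 library, and leaf replicate 1 (47.7 TPM) lay above root replicate 1. The other 5 libraries were at 5.87 to 14.8 TPM. HHT1 (comp11121_c0), a feruloyl transferase of suberin, was at 10.8 and 30.2 CPM in root, had no count in leaf and was at least 648-fold above leaf (adjusted p = 0.0367). Not all HHT1 IDs were root genes. HHT1 comp140796_c0 was at 3.04 and 0.453 CPM in flower and at least 63.4-fold above leaf (adjusted p = 0.0410). HHT1 comp80917_c0 and comp88315_c0 had no count in root, were at 4.76 and 6.30 CPM in leaf replicate 1 and had no count in leaf replicate 2. CYP86A1, a CYP86A enzyme of root suberin in Arabidopsis, had 1.56 and 9.48 CPM in root for comp13388_c1 and no count in flower, a difference of at least 93.6-fold (adjusted p = 0.0352). Both CYP86A1 IDs come from 1 assembled component and may be pieces of 1 gene. The same holds for ABCG6 comp12825_c0 with ABCG20 comp12825_c2. It also holds for GPAT5 comp10809_c0 with GPAT8 comp10809_c1, which is counted in the cutin synthesis list. CYP86B1, which hydroxylates very long chains, had IDs of both kinds. CYP86B1 comp22491_c0 was at 44.6 and 23.0 CPM in leaf and 3.55 and 1.03 CPM in root (-3.89 ± 0.95, adjusted p = 0.0431). CYP86B1 comp2559_c0 was counted in root alone, at 0.527 and 3.20 CPM, and passed in no comparison.

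Of 12 regulators tested, 5 were lower in root than in flower (11.2% of all tested genes). WIN1, an ERF factor that activates cutin and wax genes in Arabidopsis, had 2 IDs. WIN1 comp17215_c0 was at 27.1 and 46.5 CPM in flower and at most 0.513 CPM in any other library. It fell in leaf against flower (-9.32 ± 1.14, adjusted p = 0.00443) and in root against flower (-6.92 ± 0.99, adjusted p = 0.00775). WIN1 comp37462_c0 was at 4.82 and 20.9 CPM in leaf and 1.32 and 9.68 CPM in flower and passed in no comparison. HDG1 (comp19464_c0), a homeodomain factor of the epidermal family, was at 96.1 and 145 CPM in flower and 13.5 and 27.7 CPM in root (-2.55 ± 0.48, adjusted p = 0.0159). HDG5 (comp19504_c0) fell in root against leaf (-3.90 ± 0.70, adjusted p = 0.0153).

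Summed markers of the epidermis were lowest in root and highest in flower. The 10 IDs with the symbols HDG1, HDG5, HDG11, HDG12 and PDF2, all of them also in the regulator list, summed to 17.6 and 31.8 CPM in root and to 46.9 and 35.5 CPM in fruit. They summed to 101 and 87.8 CPM in leaf and to 120 and 171 CPM in flower. Most of the sum came from HDG1, whose flower libraries were at 96.1 and 145 CPM, its leaf libraries at 81.7 and 62.6 CPM, its fruit libraries at 42.7 and 27.6 CPM and its root libraries at 13.5 and 27.7 CPM. HDG12 comp38430_c0 went the other way, at 2.88 and 2.45 CPM in root and 0.396 and 1.02 CPM in flower. None of the 10 was at 0 in all libraries, and ATML1, MYB16 and MYB106 matched no symbol. The symbol PDF1, also planned as a marker, was left out of the sum. The part of epidermal content in the differences above was not tested. In fruit replicate 2, with its 5310 CPM of oleosin, wax genes went both ways. Higher than in fruit replicate 1 were, among others, FAR2 comp17693_c0 (68.8 against 0.234 CPM) and KCR1 comp14294_c0 (263 against 9.92 CPM). Lower were, among others, CER3 comp16046_c0 (9.15 against 18.3 CPM) and CUT1 comp12348_c0 (1.66 against 4.62 CPM). CYP94A1 comp21882_c0 and CYP77A3 were also lower, at 54.0 and 85.4 CPM in fruit replicate 2 against 92.2 and 131 CPM in fruit replicate 1. The part of seed tissue in these differences was not tested.

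Genes with a pattern most like each of the 4 were named by Pearson's r of log2 CPM over the 8 libraries, among 8232 IDs with a symbol and a mean of at least 5 CPM. These are descriptions over libraries that share organs. For CYP86A2 they were APG (comp5743_c0, r = 0.996), ROMT (0.993), At5g45910 (0.988), FAO4A (0.987) and IAA14 (0.986). APG, a symbol used for GDSL lipases, had 2064 and 1954 CPM in flower, 199 and 315 CPM in leaf and at most 0.635 CPM in root and fruit. FAO4A, a long-chain alcohol oxidase, had 29.2 and 43.3 CPM in flower and 9.58 and 9.87 CPM in leaf, and IAA14, an auxin response repressor, 3964 and 2582 CPM in flower.

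For ABCG12 the likest genes were PERK2 (0.998), BHLH135 (0.997), IQD1 (0.994), SKIP30 (0.994) and PRA1D (0.993). BHLH135 (comp8132_c0) was also counted almost only in flower, with 426 and 438 CPM there and at most 0.324 CPM elsewhere. IQD1, in contrast, was at 44.3 to 60.7 CPM in the other organs and at 255 and 240 CPM in flower, so a high r does not mean the same fold. For CYP94A1 they were At1g11330 (0.966), ERF061 (0.962), PAO (0.961), At5g67385 (0.956) and GAPB (0.951). GAPB, a chloroplast enzyme, had 261 and 218 CPM in leaf and at most 13.1 CPM elsewhere. ERF061, an ERF family factor, was at 0.0405 and 0 CPM in root and 11 to 18.9 CPM in the aerial organs. For CYP77A3 they were At1g55000 (0.967), Os05g0200100 (0.963), RPL24 (0.956), At1g08570 (0.954) and GA2OX7 (0.952). Between the 4 genes themselves, r ran from 0.0542 for CYP94A1 with ABCG12 to 0.880 for CYP77A3 with ABCG12.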

How the data were processed

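Poly(A) RNA of 8 libraries was read in pairs on an Illumina instrument, per the labels' protocols. Per the file headers, the deposited table holds estimated counts, TPM and RPKM per assembled gene (RPKM were not used). The assembler, aligner and counting tool, and strandedness, are not given in the sources used, so antisense reads were not separated. At least 97.98% of each library's counts were whole (tolerance 0.005), and all were rounded. In R 4.3.3, edgeR 4.0.16 fitted TMM-scaled counts of all 8 libraries with organ as the only term (filterByExpr, 2238 IDs removed, 4 residual degrees of freedom, common biological coefficient of variation 0.667). SEs were derived from the F statistic. The edgeR steps were tested on simulated counts, with folds planted in root for genes above a minimum mean level. No gene was made absent from an organ there, so bounds and genes without counts in an organ were not covered. Alternatives used limma 3.58.1, DESeq2 1.42.0, other scalings, no filter, a replicate block and each library left out. Where an organ had no count, a floor of 3 counts over its libraries gave the bound. The members and lists were chosen with earlier results of these data known. IDs whose symbol had another meaning were left out (7 histone HHT1, 5 far-red FAR1 and 1 aminotransferase WIN1), and a sporopollenin list matched no symbol. Named genes are the 4 members, their families, up to 2 higher and 2 lower passing genes per list and comparison with the highest mean CPM (not all are printed), and the 5 likest patterns. FAR2 comp17693_c0, KCR1 and WIN1 comp37462_c0 were chosen outside these rules, after their values were seen. Also outside these rules are KCS11 comp15891_c0 and comp22033_c0, HTH comp15708_c0 and comp8693_c0, HHT1 comp80917_c0 and comp88315_c0, and HDG12 comp38430_c0. The same holds for IDs named only as pieces of 1 component.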

Additional observations from a re-analysis of the deposited data

How the results depend on the processing

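The number of listed genes that passed stayed within 1.5 times of the reported count in each of the 6 comparisons under DESeq2's size factors in edgeR, total-count scaling without the 20 highest genes, no filter, no minimum fold and limma on log2(TPM + 1). DESeq2's Wald test gave 20 in place of 4 for root against fruit and 32 in place of 20 for leaf against fruit. It stayed within 1.5 times elsewhere, and the cause was not tested. These are totals over both directions. Counted by direction over these settings and the replicate block, 7 list counts moved beyond 1.5 times or to or from 0, and 77 did not. With 1 library left out, the counts ranged from 13 to 25 for root against leaf, 20 to 33 for root against flower, 0 to 3 for root against fruit, 5 to 19 for leaf against flower, 0 to 24 for leaf against fruit and 10 to 30 for flower against fruit. The range for ABCG12 was -14.36 to -12.01 for root against flower and -18.09 to -11.67 for leaf against flower. No log2 fold change of at least 1 changed sign under the alternatives run for CYP86A2, CYP77A3 and CYP94A1 in the 6 comparisons and for ABCG12 in root and leaf against flower (its other comparisons were not recomputed); CYP77A3 in root against leaf and in root against fruit, both under 1, crossed 0 when 1 library was left out.

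Under total-count scaling the all-gene median went from 0.09 to 0.54 for root against leaf, from 0.17 to 0.88 for root against flower, from 0.13 to 0.39 for leaf against flower, from 0.01 to -0.36 for leaf against fruit and from -0.16 to -0.83 for flower against fruit. It moved the share of all calls that were higher in the first organ from 35.9% to 52.4%, 45.7% to 72.1%, 51.8% to 61.3%, 62.8% to 47.8% and 54.8% to 28.1%. It gave CYP86A2 -11.31, CYP77A3 -1.21 and CYP94A1 -2.18 for root against flower, and CYP77A3 0.59 for root against leaf. Relative to the median of all genes, CYP77A3 was at -2.06 (TMM) and -2.09 (total) for root against flower. Log2(TPM + 1) has no correction for composition, and its pseudocount of 1 shrinks differences at low levels. It gave smaller differences in the comparisons named here, and the part of each was not tested. CYP86A2 was at -5.24 (root against leaf), -8.17 (root against flower), -0.12 (root against fruit), 5.11 (leaf against fruit) and 8.05 (flower against fruit). CYP94A1 was at -3.43 (root against leaf) and -1.78 (root against flower). CYP77A3, at 24.9 TPM or more in every library, was at -0.81 (root against flower), -1.33 (leaf against flower) and 0.63 (flower against fruit). ABCG12 was at -7.86 (root against flower) and -7.88 (leaf against flower).

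With the replicate number as a block, 28, 34, 3, 19, 21 and 28 listed genes passed, in place of 28, 36, 4, 21, 20 and 30. The labels do not say that a number marks a shared plant or batch. Same-numbered libraries of the organs taken in blossom deviated together (r of deviations 0.436 for root with leaf, 0.384 for root with flower and 0.489 for leaf with flower), which is a hint from the data only. With fruit, r was 0.101 for leaf, -0.0371 for flower and -0.156 for root. The samples were treated as unpaired.

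With 2 libraries per organ, differences of a few fold were often not detectable, and levels of a few counts, as for ABCG12 outside flower and CYP86A2 in root and fruit, set no order.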

Other observations

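The table's GO terms name cutin, cuticle, wax or suberin for 9 IDs outside the symbol lists, 6 of them with the symbol ALE2, a receptor kinase of epidermis formation in Arabidopsis. Their patterns varied. ALE2 comp11452_c0 was, like CYP86A2, higher in leaf and flower than in root and fruit, at 6.19 and 4.39 CPM in leaf and 1.75 and 10.2 CPM in flower against at most 0.439 CPM in root and fruit. ALE2 comp17981_c0 was highest in root, at 88.4 and 58.5 CPM, with 11.2 to 26.3 CPM in the other organs. ALE2 comp21539_c0 was highest in leaf, at 69.7 and 54.6 CPM, with 13.9 and 13.5 CPM in flower. ACLA-1 comp21900_c0, a subunit of ATP-citrate lyase, which supplies acetyl-CoA for fatty acid elongation, was highest in fruit, at 479 and 438 CPM, and lowest in leaf, at 59.9 and 111 CPM. The 4 IDs named were picked from the 9 after their values were seen, and no test is given.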
